A study of Mus musculus with 4 samples.

Results

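The Notch pathway genes described here are 10 genes picked by symbol as receptors, ligands and targets of the pathway in interstitial progenitors and vessels of the fetal gonad. They are the receptors Notch1, Notch2 and Notch3, the ligands Jag1, Jag2 and Dll4, and the targets Hes1, Hey1, Heyl and Nrarp. All 10 were among the 40999 listed features, and all 10 were among the 20114 features kept by the filter on low counts.

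Notch receptors and their ligands are both membrane proteins, so the signal passes between touching cells. A bound receptor is cut by an ADAM protease and then by γ-secretase, and the freed intracellular part enters the nucleus and joins RBPJ to switch on genes such as those of the HES and HEY repressors. In vessels Dll4 is the ligand of arterial and sprouting endothelium, while Notch3 and Heyl are widely used as genes of mural cells, the pericytes and smooth muscle that wrap the endothelium, and in the fetal testis Notch signalling keeps interstitial progenitors from becoming Leydig cells.

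Total RNA was sequenced from gonads of wild-type embryos of the C57BL/6J strain, collected on embryonic days E11.5 to E14.5 at daily steps, and each of the 4 time points gave 1 library. XX and XY gonads of a time point were pooled before extraction, so no value can be assigned to a sex. The mesonephros was part of the E11.5 tissue and was removed at the 3 later time points, so age and dissection cannot be told apart in any comparison with E11.5. With 1 library per time point there is no replicate check, every comparison is of libraries and not of conditions, and all intervals cover counting error only. In a bulk library fewer cells of a type and less RNA per cell cannot be told apart.

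Deduplicated counts summed to between 25593453 and 31752562 per library. Ribosomal RNA took between 8.72% and 17.7% of the counts in the 3 earlier libraries and 48.9% at E14.5. Levels are therefore given as CPM, the counts of a gene relative to the size of its library, after scaling by TMM, a method that sets the typical gene equal between libraries, and this scaled CPM is also divided by exon length wherever genes are compared with each other. Genes of the gonad were present in every library, with none of 10 supporting cell and gonad markers at 0. Of 12 nephric and mesonephric genes, 9 fell between E11.5 and E12.5, and their summed level was 378.1, 144.9, 131.9 and 117.8 scaled CPM from E11.5 to E14.5. Of 8 neural genes, 6 fell at the same step, with a summed level of 56.2, 23.1, 25.2 and 29.1 scaled CPM. By the rule given below, 8.21% of all 20114 kept genes fell at this step.

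A gene is said to have risen or fallen only where it differed by at least 2-fold and where the exact 95% counting interval of its log2 fold change left out 0. By this rule 2 members rose at E12.5 against E11.5, Dll4 and Heyl, where 16.3% of all 20114 genes passed in either direction. None of the members passed at E13.5 against E12.5, where 4.06% of all genes did, and none at E14.5 against E13.5, where 7.28% did. Between E12.5 and E14.5, both dissected free of the mesonephros, 2 members fell, Dll4 and Hey1, against 10.5% of all genes in either direction. The 2 falls and the 2 rises share the E12.5 library. The median log2 fold change of the 10 members was 0.36, 0.19, 0.00 and 0.15 in the 4 comparisons in this order, and that of all genes was 0.00, 0.00, -0.01 and 0.00.

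**Figure D1:**
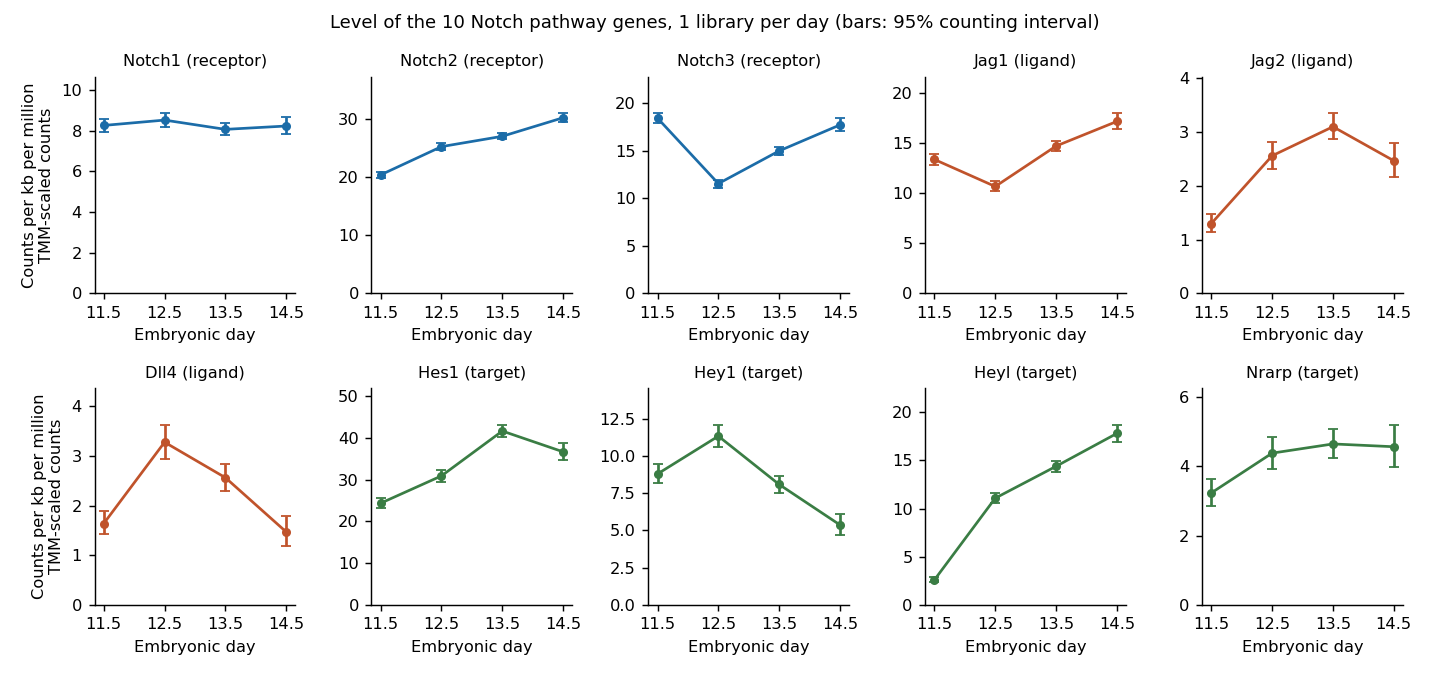
Level of each of the 10 genes at each embryonic day, in TMM-scaled CPM per kilobase of exon on a linear axis from 0, with 1 point per library and bars for the 95% counting interval. Notch1 stays between 8.06 and 8.52, and on this scale Heyl goes from 2.58 to 17.8. Dll4 and Hey1 are highest at E12.5. Hey1 is lowest at E14.5, while for Dll4 the intervals of E11.5 and E14.5, its lowest libraries, overlap.

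**Figure D2:**
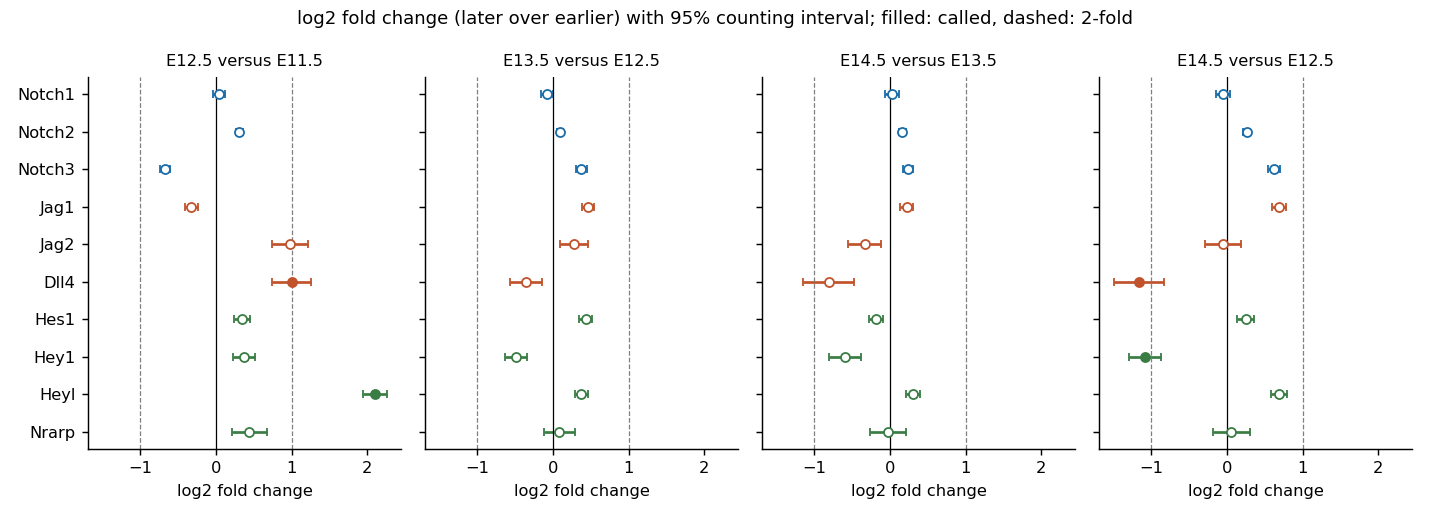
log2 fold change of the 10 genes in the 4 comparisons, later library over earlier, with 95% counting intervals, solid points for genes that rose or fell and dashed lines at 2-fold. Heyl at 2.10 and Dll4 at 1.001 are solid in the first panel, and Dll4 at -1.16 and Hey1 at -1.08 in the last.

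Notch1, the receptor that passes Dll4 signals in endothelium and is needed for arteries to form, had 2683, 2535, 3026 and 1469 counts from E11.5 to E14.5. After scaling these were 78.3, 80.8, 76.5 and 78.1 CPM, and each interval overlapped that of its neighbour in the order of levels. The highest library was 1.06-fold above the lowest. Its gene lies at chr2:26457902-26503822 of mm10 on the minus strand.

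Notch2, a receptor of many mesenchymal and epithelial cells, lies at chr3:98013538-98150367 on the plus strand and had 7348, 8332, 11247 and 5984 counts at the 4 time points in order. Its TMM-scaled CPM was 214.5, 265.7, 284.4 and 318.0, higher at each later time point with no overlap of intervals between neighbours. No step reached 2-fold, and the log2 fold changes of the 3 daily steps were 0.31, 0.10 and 0.16. Notch2 was also the most abundant receptor per length in every library.

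Notch3, at chr17:32120893-32166852 on the minus strand, is the receptor best known from pericytes and vascular smooth muscle and is also active in interstitial progenitors. It had 5012, 2875, 4706 and 2647 counts from E11.5 to E14.5. Its scaled CPM of 146.3, 91.7, 119.0 and 140.7 was lowest at E12.5, with a log2 difference of -0.67 from E11.5 (95% counting interval -0.74 to -0.61) and of 0.62 between E12.5 and E14.5 (0.54 to 0.69). The intervals of E11.5 and E14.5 overlapped.

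Per kilobase, Notch2 made up 40.9% of the summed level of the 4 Notch receptors at E11.5 and 52.4%, 52.0% and 52.3% at the 3 later time points. The share of Notch3 was 36.9%, 23.9%, 28.8% and 30.6% from E11.5 to E14.5, so at E11.5 Notch2 and Notch3 stood close together and later Notch2 alone held the larger share. Notch1 held 16.5%, 17.7%, 15.5% and 14.2% in the same order. Notch4, the endothelial receptor that is no member, held 5.66%, 6.00%, 3.82% and 2.92%.

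The receptors are built from long rows of EGF-like repeats, whose coding sequences are alike between paralogs, so the longest stretch of identical coding sequence between members is shown as a measure of how far reads can tell them apart. In GENCODE M21 transcripts the longest run shared by Notch1 and Notch2 was 25 bases, in capitals here with 10 flanking bases on each side. It lies at chr2:26484311-26484335 in exon 4 of Notch1, read on the minus strand, and at chr3:98126171-98126195 in exon 22 of Notch2, read on the plus strand.
Notch1: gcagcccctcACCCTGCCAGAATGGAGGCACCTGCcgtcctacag
Notch2: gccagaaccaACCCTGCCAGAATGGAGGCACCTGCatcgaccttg
Notch2 and Notch3 shared at most 24 bases and Notch1 and Notch3 at most 21. Hey1 and Heyl, paralogs in the HEY family, shared at most 17 bases, at chr3:8665004-8665020 in exon 5 of Hey1 on the minus strand and at chr4:123246007-123246023 in exon 5 of Heyl on the plus strand.
Hey1: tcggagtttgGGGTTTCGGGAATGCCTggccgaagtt
Heyl: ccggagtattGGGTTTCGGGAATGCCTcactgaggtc
Jag1 and Jag2 shared at most 21 bases, Jag2 and Dll4 at most 18 and Jag1 and Dll4 at most 12.

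Jag1, at chr2:137081451-137116520 on the minus strand, is the ligand by which endothelium and smooth muscle pass the signal to the next layer of the vessel wall. Its counts were 2517, 1839, 3198 and 1776 at the 4 time points. The scaled CPM was 73.5, 58.7, 80.9 and 94.4 from E11.5 to E14.5, and no interval overlapped that of its neighbour. Like Notch3, Jag1 was lowest at E12.5, with a log2 difference of -0.33 from E11.5 (-0.41 to -0.24), and from E12.5 to E14.5 the difference was 0.69 (0.59 to 0.78). Exons of Jag1 share 725 bases with the opposite strand of Slx4ip, which had between 354 and 739 counts per library, and the strand setting of the authors' counting is not stated in the sources used here.

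Jag2, at chr12:112907803-112929764 on the minus strand, is a second ligand of the Serrate type and had 230, 415, 634 and 240 counts. Its scaled CPM was 6.72, 13.2, 16.03 and 12.8 from E11.5 to E14.5. E11.5 stood below the other libraries without overlap, and E12.5 and E14.5 overlapped. The log2 difference of E12.5 from E11.5 was 0.98 (0.74 to 1.22), just short of the 2-fold rule.

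Dll4, at chr2:119325725-119335666 on the plus strand, had 197, 361, 356 and 97 counts from E11.5 to E14.5. In scaled CPM these were 5.75, 11.51, 9.001 and 5.16. Dll4 was highest at E12.5, and its lowest libraries, E11.5 and E14.5, overlapped. It rose 2.001-fold from E11.5 to E12.5, with a log2 fold change of 1.001 (0.75 to 1.26), which stands at the edge of the rule: it was 0.99 with a prior count of 2 and 0.88 when 15 housekeeping genes set the scale. From E12.5 to E14.5 Dll4 fell 2.23-fold, a log2 fold change of -1.16 (-1.50 to -0.83), and with the housekeeping scale the value was -0.96. Its exons share 217 bases with Gm14207 on the opposite strand, which had between 3 and 9 counts.

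Among the 5 canonical ligands, Jag1 held the largest part of the summed level per kilobase in every library, with 71.5%, 57.9%, 64.7% and 73.5% from E11.5 to E14.5. Dll4 held 8.76%, 17.8%, 11.3% and 6.28%, so it came after Jag1 at E11.5, where its interval overlapped the level of Dll1, and at E12.5. Jag2, with 6.93%, 13.9%, 13.6% and 10.5%, stood above Dll4 at E13.5 and E14.5. The other canonical ligands, Dll1 and Dll3, held between 4.01% and 7.91% each.

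**Figure D3:**
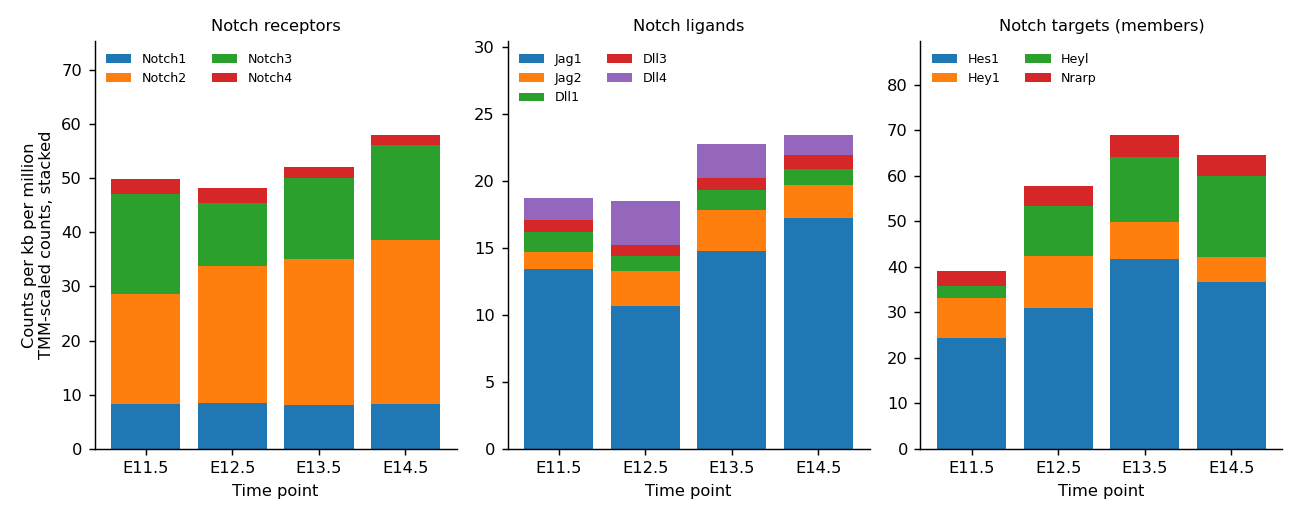
Level of the 4 Notch receptors, the 5 canonical ligands and the 4 target genes among the members, stacked in TMM-scaled CPM per kilobase, with 1 bar per library on axes from 0. Notch2 and Jag1 are the largest segments of their families, except that Notch3 comes close to Notch2 at E11.5, and Heyl goes from 6.63% to 27.6% of the targets.

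Hes1, a basic helix-loop-helix repressor that many signals besides Notch can switch on, lies at chr16:30065357-30067796 on the plus strand and had 1443, 1677, 2851 and 1194 counts. Its scaled CPM was 42.1, 53.5, 72.1 and 63.5, highest at E13.5 with no overlap between neighbours. Hes1 was the most abundant target per kilobase in each library, with 62.5%, 53.6%, 60.6% and 56.9% of the 4 targets. Its largest daily log2 difference was 0.43 (0.34 to 0.52), from E12.5 to E13.5.

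Hey1, a HEY repressor of endothelium that acts in arterial fate, lies at chr3:8663359-8667038 on the minus strand. It had 728, 859, 773 and 244 counts from E11.5 to E14.5, or 21.3, 27.4, 19.5 and 12.97 scaled CPM. E12.5 was highest and E14.5 lowest, and E11.5 and E13.5 overlapped. From E12.5 to E14.5 Hey1 fell 2.11-fold, a log2 fold change of -1.08 (-1.29 to -0.87), made up of -0.49 and -0.59 at the daily steps. With the housekeeping scale the value was -0.88, short of the rule.

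Heyl, the HEY repressor best known from mural cells and other mesenchyme, lies at chr4:123233556-123249870 on the plus strand. It had 401, 1575, 2579 and 1519 counts from E11.5 to E14.5, which are 11.7, 50.2, 65.2 and 80.7 scaled CPM. On this scale every time point stood above the one before it without overlap, and the highest library was 6.90-fold above the lowest, the widest range of the 10 genes. Heyl rose 4.29-fold from E11.5 to E12.5, a log2 fold change of 2.10 (1.94 to 2.26), larger in size than that of 98.9% of the 12459 genes with at least 100 counts in both libraries. The later daily differences were 0.38 and 0.31. The nephric and neural genes of the E11.5 tissue fell at the step where Heyl and Dll4 rose, and their part in these rises was not tested.

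Nrarp, at chr2:25180758-25183339 on the plus strand, encodes an ankyrin repeat protein that is induced by Notch and limits it. It had 286, 355, 475 and 222 counts, or 8.35, 11.3, 12.0 and 11.8 scaled CPM. E11.5 was lowest, with a log2 difference of 0.44 to E12.5 (0.21 to 0.67), and the 3 later libraries did not differ beyond their intervals.

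Shares within a family do not depend on the scaling, but a larger share of any gene leaves less for the rest. The Hey1 share was lower at E12.5 than at E11.5 although its scaled CPM was higher, at 27.4 against 21.3. Shares of Hey1 and Heyl moved in opposite directions between E11.5 and E14.5. Hey1 went from 22.6% of the summed level per kilobase of the 4 targets at E11.5 to 19.7%, 11.8% and 8.33%, while Heyl went from 6.63% to 19.2%, 20.9% and 27.6%. Over the 4 libraries their centred log2 profiles lay 1.29 apart as a root mean square distance, the widest of all pairs of members. The closest pairs were Notch2 and Nrarp at 0.08, Hes1 and Nrarp at 0.13, Notch2 and Hes1 at 0.15 and Notch3 and Jag1 at 0.18.

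The directions of these differences at E14.5 depended on how the large ribosomal RNA share was handled. Scaling by total counts lowers the median gene by 1.06 on the log2 scale at E14.5 against E13.5 and by 1.04 against E12.5. Under it all 10 members were lower at E14.5 than at E13.5 and than at E12.5. Compared with the TMM scale, the direction turned for Notch2, Notch3, Jag1 and Heyl in both comparisons. It also turned for Notch1 against E13.5 and for Hes1 and Nrarp against E12.5. In deposited TPM, which the authors scaled over all features with rRNA included, every member except Heyl was lowest at E14.5, and Heyl read 3.99, 20.8, 29.6 and 11.9 TPM. The shift is common to all genes, so it also moves each list described below, and the falls of Dll4 and Hey1 were then larger, with log2 fold changes of -2.20 and -2.12 from E12.5 to E14.5 on total counts.

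Members known from endothelium were read beside the endothelial list. None of its 15 genes rose or fell in any of the 4 comparisons, with a median log2 difference of -0.19, -0.40, -0.09 and -0.49, and its summed level was 618.1, 583.1, 456.4 and 433.2 scaled CPM. Cdh5, Kdr and Pecam1, its most counted genes, which encode the endothelial cadherin, a VEGF receptor and a junction protein, had log2 differences of -0.40, -0.57 and -0.62 between E12.5 and E14.5. Per kilobase Dll4 was 0.83%, 1.82%, 1.79% and 1.07% of the summed endothelial level from E11.5 to E14.5. Hey1 was 4.47%, 6.30%, 5.67% and 3.90% of it. Notch1 held a higher share at each later time point, with 4.19%, 4.73%, 5.64% and 5.97%. Jag1, which is also a ligand of smooth muscle, was 6.79%, 5.93%, 10.3% and 12.48% of it. The endothelial sum per kilobase itself went from 197.2 at E11.5 to 137.7 at E14.5, which raises the share of a gene that stays level.

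The summed level of the 6 arterial genes was highest at E11.5 and lowest at E14.5, at 230.7, 219.7, 179.3 and 148.6 scaled CPM. Of the 6, 2 rose at E12.5 and the same 2 fell between E12.5 and E14.5, Gja4 and Gja5, which encode connexins of arterial endothelium and are named here after their values were seen. In either direction 16.3% of all genes passed at the first step and 10.5% at the second. Both steps share the E12.5 library. Gja4 had 129, 266, 256 and 71 counts, with log2 fold changes of 1.17 (0.86 to 1.49) and -1.17 (-1.57 to -0.79). Gja5 had 136, 456, 409 and 110 counts, with log2 fold changes of 1.87 (1.59 to 2.16) and -1.31 (-1.63 to -1.01). The other 4 passed the rule at neither step. Efnb2 and Unc5b, which had the most counts of the 6, had log2 differences of -0.33 and -0.10 at E12.5 and of -0.46 and -0.69 between E12.5 and E14.5. Sox17 had 0.64 and -0.58, and Cxcr4 had 0.33 and -0.07. Like Dll4, both connexins and Sox17 had their highest scaled CPM at E12.5, while Efnb2, Unc5b and the sum were highest at E11.5. Cxcr4 also read highest at E12.5, but it was nearly level from there on. Its log2 difference from E12.5 was -0.006 at E13.5 and -0.07 at E14.5.

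Notch3, Jag1 and Heyl were read beside 10 mural genes in the same way. Of these, Cspg4 and Myh11 rose and Rgs5 and Des fell between E11.5 and E12.5, and Rgs5, Acta2 and Myh11 rose between E12.5 and E14.5, all named here after their values were seen, except Acta2 and Cspg4, which are among the 3 list genes with the most counts. Over all genes, 16.3% passed in either direction between E11.5 and E12.5 and 10.5% between E12.5 and E14.5. In the latter comparison 75.7% of all genes that passed were higher at E14.5. The summed mural level was 319.7, 302.2, 387.2 and 483.1 scaled CPM. Per kilobase the mural sum was 90.0, 72.2, 93.4 and 117.9 in scaled CPM. In it Rgs5 went from 18.3 at E11.5 to 2.06 at E12.5 and Des from 14.3 to 4.61, which raises the share of any other gene at that step. Heyl was 2.87% of this per-kilobase mural sum at E11.5 and 15.4%, 15.4% and 15.1% afterwards. Jag1 was 14.9%, 14.8%, 15.8% and 14.6% of it, with no large step. Notch3 was 20.5%, 15.99%, 16.04% and 15.02%. On the TMM scale the log2 differences between E12.5 and E14.5 were 0.62 for Notch3, 0.69 for Jag1, 0.68 for Heyl and 0.68 for the mural sum, while single mural genes ranged from 0.07 to 1.31. Values near those of the 3 Notch genes were not confined to the mural list. In the interstitial progenitor list described below, the sum differed by 0.31 and single genes by -0.74 to 0.65, the last being Pdgfra. On total counts the differences of the 3 Notch genes and of the mural sum were below 0. The part of cell numbers in these values was not tested.

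**Figure D4:**
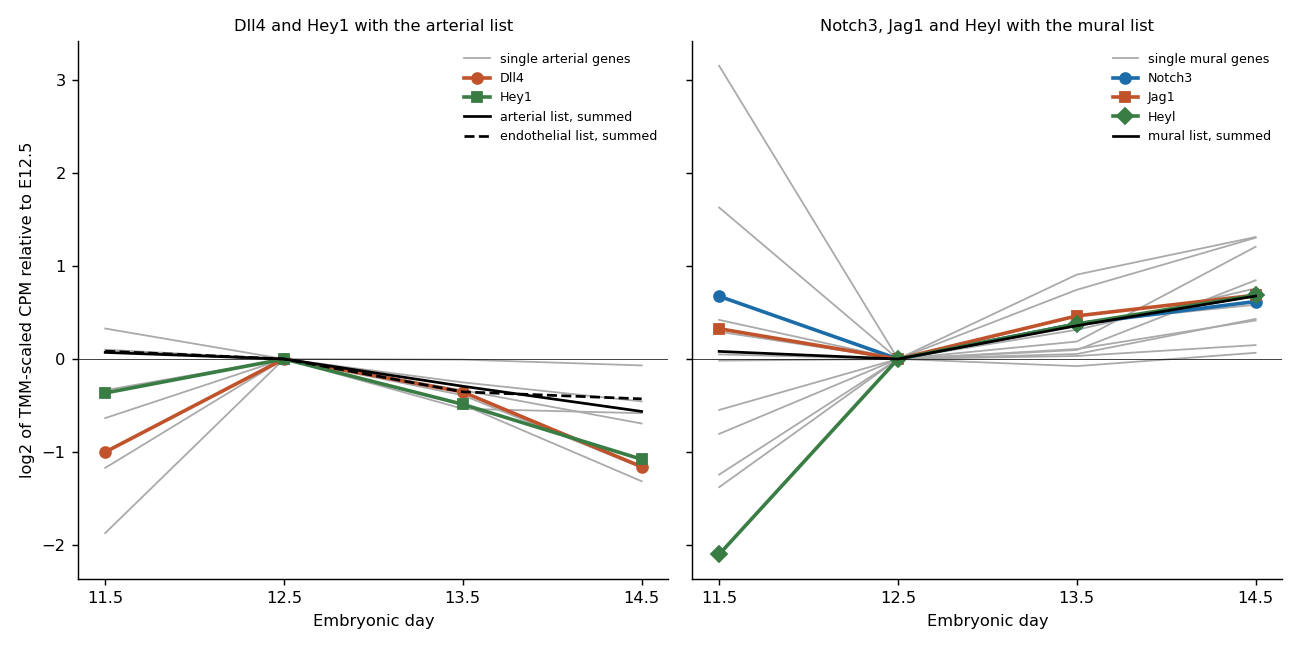
log2 of TMM-scaled CPM relative to the E12.5 library, by embryonic day, with Dll4 and Hey1 beside the 6 single arterial genes (grey) and the summed arterial and endothelial lists on the left, and Notch3, Jag1 and Heyl beside the 10 single mural genes (grey) and their sum on the right. On the left Dll4 and Hey1 end below both sums at E14.5, and on the right the 3 Notch genes end between 0.62 and 0.69 at E14.5 while single mural genes spread from 0.07 to 1.31, and at E11.5 Heyl stood 2.10 lower than at E12.5, Notch3 0.67 higher and Jag1 0.33 higher.

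Interstitial progenitors and fetal Leydig cells were read through their own lists. Of the 11 interstitial progenitor genes, 7 did not pass the rule at E12.5 against E11.5, where 16.3% of all genes passed. Among the 7 were Nr2f2 and Pdgfra, the most counted genes of the list, with log2 differences of -0.88 and 0.36. Ptch1 and Wnt5a rose at this step, with log2 fold changes of 1.17 and 1.19. Nr2f1 fell, with a log2 fold change of -2.53. Wnt5a and Nr2f1 are named after their values were seen. None of the list passed the rule in the 3 other comparisons. All 6 fetal Leydig genes, which encode steroid enzymes and transport, Insl3 and the LH receptor, rose at E12.5 and again at E13.5, where 8.12% and 2.54% of all genes rose. Their summed level was 13.3, 170.8, 700.6 and 1154 scaled CPM.

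The rest of the pathway was followed in 46 further genes, of which 43 passed the filter on low counts. At E12.5 against E11.5, 1 of the 43 rose and 1 fell, where 16.3% of all genes passed in either direction. At E13.5 against E12.5, 2 rose and none fell, where 4.06% of all genes passed. None passed at E14.5 against E13.5, where 7.28% of all genes did. At E14.5 against E12.5, 2 rose and none fell, where 10.5% of all genes passed. Their median log2 difference was 0.04, 0.04, 0.02 and 0.08 in the 4 comparisons.

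Hes5, a target best known from neural progenitors, rose at E12.5 from 22 to 96 counts, a log2 fold change of 2.25 (1.57 to 2.99). It had 110 counts at E13.5 and 88 at E14.5. Dtx1, a Deltex E3 ligase that binds the Notch intracellular part, had 173, 278, 779 and 574 counts, and it rose by 1.15 at E13.5 (0.95 to 1.35) and by 1.78 from E12.5 to E14.5 (1.57 to 1.995). Dner, a noncanonical ligand of neurons, had 39, 6, 26 and 13 counts, and its fall of 2.55 on the log2 scale and later rises of 1.76 and 1.83 rest on the 6 counts at E12.5. Its exons also share 77 bases with the opposite strand of a microRNA gene that had between 313 and 552 counts.

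Genes that process the receptors and ligands or carry the signal in the nucleus were followed as well. None of 5 glycosylation genes, 4 ubiquitin ligases of the ligands, 10 protease genes (Furin, the ADAM proteases and γ-secretase subunits) and 7 genes of the RBPJ complex passed the rule in any of the 4 comparisons. Their log2 differences in these lists lay between -0.69 and 0.64. Hes2, with 0, 0, 0 and 1 counts, and Hes3, with 3, 6, 2 and 1, stood near or under the floor of 3 counts, and no fold is given for them. Dlk2, with 2, 6, 6 and 8 counts, was also below the filter.

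**Figure D5:**
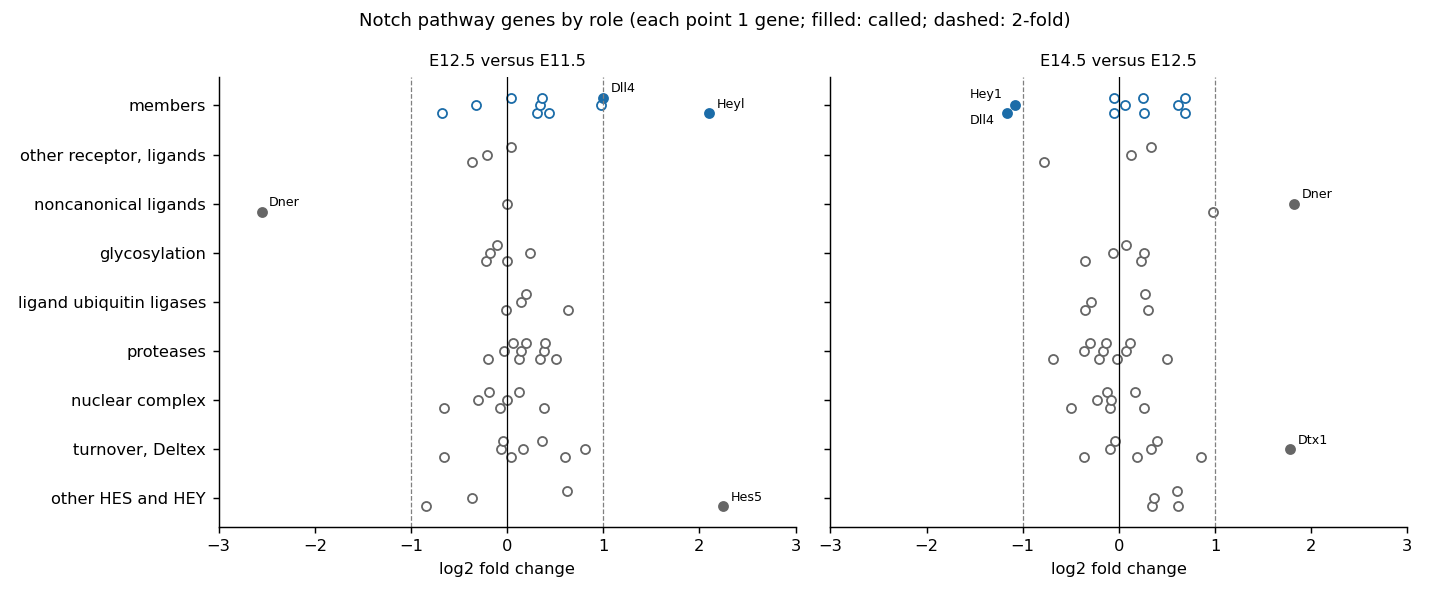
log2 fold change of the Notch pathway genes grouped by role, 1 point per gene, at E12.5 against E11.5 on the left and E14.5 against E12.5 on the right, with solid points for genes that rose or fell and dashed lines at 2-fold. Proteases, glycosylation genes and the nuclear complex stay inside the dashed lines on both sides, and the solid points are members, Dner, Hes5 and Dtx1.

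For each member the genes with the most similar profile were sought among 6105 genes whose count was 500 or more in each library, by the root mean square distance of centred log2 levels over the 4 libraries. Profiles of 4 points are matched by many genes where a member varies little. Within a distance of 0.1 lay 2253 genes for Notch1, 460 for Nrarp, 327 for Notch2, 68 for Hes1, 29 for Jag1, 19 for Jag2, 14 for Notch3, 2 for Hey1, 1 for Dll4 and 0 for Heyl. The 3 nearest to Heyl were Gramd1b at 0.11, Emilin3 at 0.12 and Serpine2 at 0.13, and those nearest to Dll4 were Plxna4 at 0.08, Cyr61 at 0.12 and Kit at 0.13. Nearest to Hey1 stood Dusp6 at 0.03, Mycn at 0.06 and Ldhb at 0.11.

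The nearest genes of Notch3 were Rgma, Cped1 and Acat2, and those of Jag1 were Ston2, Antxr1 and Zfp9, at distances of 0.02 to 0.05. Cacna1d, Sik1 and Itpr1 stood nearest to Jag2 and Tfrc, Tob1 and Btbd10 to Hes1, all within 0.06. The nearest genes of Notch1 (Phax, Gpaa1 and Ccnk), Notch2 (Lamb1, Klhl11 and Itm2b) and Nrarp (Snx13, Lonp1 and Rbl2) lay within 0.02.

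Promoters in the RefSeq set for GRCm38.p6, from 250 bases before to 50 after the gene start that RefSeq gives, were present for 7 members, and Hes1, Hey1 and Heyl had no entry. That start was the one in the deposited annotation for Notch1, Notch2, Jag1 and Nrarp. It lay 59 bases inside the gene for Dll4 and 269 bases inside for Jag2, whose whole window is within the gene as located in the files, and 38 bases outside the gene for Notch3. The windows were searched on both strands for TGGGAA, the core letters that RBPJ binds, and for CACGTG and CACNAG, letters bound by HES and HEY repressors, which cannot both match at the same bases. TGGGAA was in 0 of the 7, and in 25.6% of all 32851 promoters. CACGTG was in Nrarp alone, 108 bases before its start, and in 7.15% of all promoters. CACNAG was in 5 members, Notch1, Notch2, Notch3, Dll4 and Nrarp, and in 42.5% of all promoters.

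The bases of the window that lie before the gene start in the files, 250 for Nrarp and 191 for Dll4, are printed for Nrarp, which holds both repressor motifs, and for Dll4, the ligand that rose and then fell, with the searched letters in capitals. A match is a description of letters and not a binding site. Nrarp is at chr2:25180508-25180757 and Dll4 at chr2:119325534-119325724, both on the plus strand.
Nrarp: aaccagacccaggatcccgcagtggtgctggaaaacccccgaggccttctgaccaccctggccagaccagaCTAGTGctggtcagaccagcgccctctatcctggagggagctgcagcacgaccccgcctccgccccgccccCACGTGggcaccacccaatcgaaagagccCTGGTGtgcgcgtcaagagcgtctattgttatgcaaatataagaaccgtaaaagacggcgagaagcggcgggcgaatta
Dll4: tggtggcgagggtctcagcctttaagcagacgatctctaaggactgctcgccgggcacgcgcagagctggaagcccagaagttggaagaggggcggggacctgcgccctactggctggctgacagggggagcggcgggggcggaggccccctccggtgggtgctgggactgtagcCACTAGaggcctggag
In Nrarp CACGTG begins at -108 and the CACNAG letters, read on the minus strand, at -179 and -79. In Dll4 CACTAG begins at -16 from the start in the files, which is -75 from the RefSeq start.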

How the data were processed

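Deposited values were used as they stand, and reads were not realigned. The authors depleted rRNA with probes and RNase H, made 1 stranded library with molecular identifiers per pool, aligned to mm10 with STAR, removed duplicates and counted reads on the exons of each gene, giving the deposited counts, and from these the deposited TPM. Tool versions, annotation release and strand setting are not given in the sources used here. Each pool drew on 2 litters and on 6 or more gonads of either sex.

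Counts of the 4 libraries were filtered with filterByExpr and scaled by TMM in edgeR 4.0.16 (R 4.3.3). Log2 fold changes used a prior count of 0.125, with exact Clopper-Pearson 95% intervals of the later library's share of counts, and levels carry exact Poisson intervals. A gene was called at 2-fold or more with an interval off 0, since 1 library per time point allows no test. A count of 0 allows up to 3 counts, 0.0759 to 0.159 scaled CPM. Scripts ran in Python 3.11.15 and were tested on simulated data.

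The members and gene lists were chosen with earlier results of these data known. All members are named, with every called gene of the pathway lists, those under the floor, up to 3 examples of a cell type list by counts, and 3 nearest profiles per member. Alternatives were DESeq2 1.42.0 size factors, TMM of each pair, total counts with and without rRNA and abundant genes, a housekeeping scale, deposited TPM with 0.1 added, a prior count of 2, other filters, a log2 threshold of 0.5, and edgeR's exact test at a preset biological coefficient of variation (BCV) of 0.1 or 0.4. Proteins were not analysed here, and a gene of the interstitial list is not reported here.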

Additional observations from a re-analysis of the deposited data

How the results depend on the processing

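No paired analysis was possible because each time point has 1 library. The calls of members, of other pathway genes and of all genes stayed within 1.5 times the stated counts with DESeq2 size factors, TMM of the pair, total counts without rRNA and the most abundant genes, and no filter. The scale mattered most at E14.5. Against E13.5, total counts gave 6 members, 24 other pathway genes and 11695 of all genes, of which 2.57% were higher in place of 79.3%, and deposited TPM gave 10 members, 40 other pathway genes and 16679 genes, 0.887% of them higher. Against E12.5 total counts gave 4, 20 and 10644, with 4% higher in place of 75.7%, and TPM gave 7, 35 and 15334, with 1.47% higher. These calls among members and other pathway genes were all in the direction of a lower level at E14.5. The housekeeping scale left 1 member at E12.5 against E11.5, Heyl, and 0 at E14.5 against E12.5, where it called 4 other pathway genes. Outside total counts and TPM at E14.5, signs turned only for Notch1, Jag2 and Nrarp, in comparisons where the stated log2 difference was 0.08 or less in size, under the housekeeping scale, TPM or total counts without rRNA and abundant genes. A prior count of 2 left Heyl as the 1 member at E12.5. With at least 10 counts in both libraries 1 other pathway gene was called at E12.5 against E11.5, at E13.5 against E12.5 and at E14.5 against E12.5, since Dner drops out, and 491 of all genes at E13.5 against E12.5, in place of 816.

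The preset variability set how many calls were left. At a BCV of 0.1 members kept the same calls, 1 other pathway gene was called at E13.5 and at E14.5 against E12.5, and all genes came to 366 at E13.5 against E12.5 and 940 at E14.5 against E13.5. At a BCV of 0.4 there were 0 members and 0 other pathway genes in every comparison, and 283, 1, 31 and 71 of all genes in the order of the report. At a log2 threshold of 0.5 the members called were 4 at E12.5 against E11.5, 2 at E14.5 against E13.5 and 5 at E14.5 against E12.5, the other pathway genes 9, 4, 3 and 10, and all genes 5554, 2046, 2655 and 3930. Depth limits Dll4 most among the members, with 97 counts at E14.5.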
